A study of Mus musculus with 11 samples.

Results

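The genes described here are the collagens, laminins and integrins of the mouse mammary gland at parturition, together with fibronectin (Fn1), Sparc, Dcn, Postn, Nid1, Nid2 and Hspg2. The rule that chose them uses gene symbols and no level, and 83 of the 14847 named genes of the expression table met the rule: 38 collagen chains, 11 laminin chains, 18 integrin alpha subunits, 8 integrin beta subunits, the 7 other matrix genes and Itgbl1, a secreted integrin beta-like protein that is no receptor subunit. Col4a3bp and the integrin-binding proteins Itgb1bp1, Itgb1bp2 and Itgb3bp carry similar symbols and were left out. The collagens Col2a1, Col10a1, Col20a1, Col22a1, Col24a1 and Col26a1 and the integrin subunit Itgb7 were not analysed here.

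The series profiled STAT5A binding and the promoter mark H3K4me3 in the mammary gland during pregnancy and at parturition, with RNA-seq at parturition, and its labels describe 11 samples. All values below come from 1 RNA-seq library, made from poly(A) RNA of whole mammary tissue at parturition (L1), freed of lymph nodes. The mice were wild type, with a mixed background given as 129SV::FVB/N::C57BL/6, and received no treatment named in the labels. The sources used here do not state their age, their number or whether tissue was pooled. With 1 library there is no replicate, so no test was possible, no error can be given, and a difference between genes with close values cannot be set against any spread. Levels are FPKM, in which the fragments of a transcript are divided by its length and by the total mapped. They are thus given per length. Values are per assembled locus, and how much of each gene a locus covers was not analysed here, which limits comparison between genes. Sequencing depth is unknown, because the table holds no counts.

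As background, mammary epithelium rests on a basement membrane, a sheet built from networks of collagen IV and laminin that are tied together by nidogen and the proteoglycan perlecan. Outside it lies connective tissue of fibrillar collagens, fibronectin and small proteoglycans. Epithelial and stromal cells hold on to these proteins through integrins, dimers of an alpha and a beta subunit, and in cultured mammary epithelium adhesion to laminin through beta 1 integrin is known to be needed for prolactin to activate STAT5 and milk protein genes.

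The promoters of a few of these genes are shown first, because they carry the contrasts described below: neighbours that start side by side (Col4a1 and Col4a2), fibrillar collagens with unlike promoters (Col3a1 and Col1a2), the collagen whose level stood far from its partner chains (Col9a1, with both of its starts), and Lamb2, which held the letters of a STAT-type motif. Each line gives the 250 bases before a RefSeq start in the build GRCm38.p6, 5′ to 3′ in the direction of transcription. Capitals mark matches, on either strand, to the CCAAT box, to TATAAA as found in many core promoters, to GGGCGG, the box bound by Sp1, and to TTCNNNGAA, the core letters of a STAT5 site. No matches overlapped in the windows shown.
Col4a1, chr8:11312827-11313076, minus strand: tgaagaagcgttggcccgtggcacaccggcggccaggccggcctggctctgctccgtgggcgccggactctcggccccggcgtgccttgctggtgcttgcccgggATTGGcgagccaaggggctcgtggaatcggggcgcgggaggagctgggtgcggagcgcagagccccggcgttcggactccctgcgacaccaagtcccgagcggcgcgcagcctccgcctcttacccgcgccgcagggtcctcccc
Col4a2, chr8:11312555-11312804, plus strand: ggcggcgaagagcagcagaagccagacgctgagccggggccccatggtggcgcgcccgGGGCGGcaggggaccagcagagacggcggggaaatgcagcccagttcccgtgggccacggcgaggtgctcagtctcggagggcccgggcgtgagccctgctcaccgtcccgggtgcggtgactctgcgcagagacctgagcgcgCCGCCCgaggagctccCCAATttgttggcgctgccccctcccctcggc
Col3a1, chr1:45311288-45311537, plus strand: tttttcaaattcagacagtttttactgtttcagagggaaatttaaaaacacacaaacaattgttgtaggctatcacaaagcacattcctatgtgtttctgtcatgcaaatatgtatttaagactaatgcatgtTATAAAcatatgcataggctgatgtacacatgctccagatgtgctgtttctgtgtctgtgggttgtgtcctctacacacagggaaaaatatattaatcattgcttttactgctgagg
Col1a2, chr6:4505368-4505617, plus strand: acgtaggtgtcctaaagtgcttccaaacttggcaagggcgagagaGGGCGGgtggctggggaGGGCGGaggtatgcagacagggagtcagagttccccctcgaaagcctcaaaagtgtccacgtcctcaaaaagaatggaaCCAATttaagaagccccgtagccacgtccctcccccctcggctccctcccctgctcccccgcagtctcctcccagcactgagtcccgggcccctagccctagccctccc
Col9a1 first start, chr1:24177360-24177609, plus strand: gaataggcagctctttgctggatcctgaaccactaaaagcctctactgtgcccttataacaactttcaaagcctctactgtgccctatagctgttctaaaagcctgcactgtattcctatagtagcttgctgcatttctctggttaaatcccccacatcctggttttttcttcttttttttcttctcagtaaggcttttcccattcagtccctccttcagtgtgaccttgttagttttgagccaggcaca
Col9a1 second start, chr1:24194953-24195202, plus strand: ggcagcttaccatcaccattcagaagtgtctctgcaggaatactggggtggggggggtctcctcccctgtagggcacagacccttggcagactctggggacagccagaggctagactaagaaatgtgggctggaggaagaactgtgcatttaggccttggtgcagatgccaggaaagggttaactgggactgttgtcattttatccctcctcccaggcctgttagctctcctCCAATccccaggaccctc
Lamb2, chr9:108479612-108479861, plus strand: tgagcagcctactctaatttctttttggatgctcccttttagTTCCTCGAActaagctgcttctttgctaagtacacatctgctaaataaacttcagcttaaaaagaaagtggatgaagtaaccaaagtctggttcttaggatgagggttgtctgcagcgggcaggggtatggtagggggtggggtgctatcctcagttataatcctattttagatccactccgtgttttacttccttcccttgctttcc
The Col4a1 and Col4a2 windows were rich in CpG, with 31 and 26 CG pairs, and their starts lay 21 bases apart on opposite strands. The plus-strand start of Col4a2 (11312805) lies before the minus-strand start of Col4a1 (11312826), so these genes overlap at their starts. Each of these windows therefore lies within the transcribed part of the other gene, and its counts are not of promoter sequence alone. Col1a2 had 11 CG pairs and Lamb2 had 3. Col3a1 had none and carried TATAAA at 117 bases before its start, and neither Col9a1 window held a CG pair.

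The 83 genes together covered a wide range, from Itgad, listed at 0, to Sparc at 132 FPKM, with a median of 2.27 FPKM. The median of all named genes was 3.90 FPKM. At or above 1 FPKM stood 56 of the 83 (67.5%), against 73.6% of all named genes. At or above 5 FPKM stood 28 (33.7%), against 44.3%, and at or above 10 FPKM stood 17 (20.5%), against 27.9%. At each of these levels the share was below that of named genes at large. At the highest and the lowest level counted, both given further below, the share of the set was instead above that of named genes. The families differed in where they lay. Laminins had a median of 5.58 FPKM with 10 of 11 at or above 1 FPKM, and the 7 other matrix genes had a median of 12.8. Collagens had a median of 1.49 FPKM with 24 of 38 at or above 1. Integrin beta subunits had a median of 2.23, and alpha subunits one of 0.71, with 8 of 18 at or above 1.

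**Figure D1:**
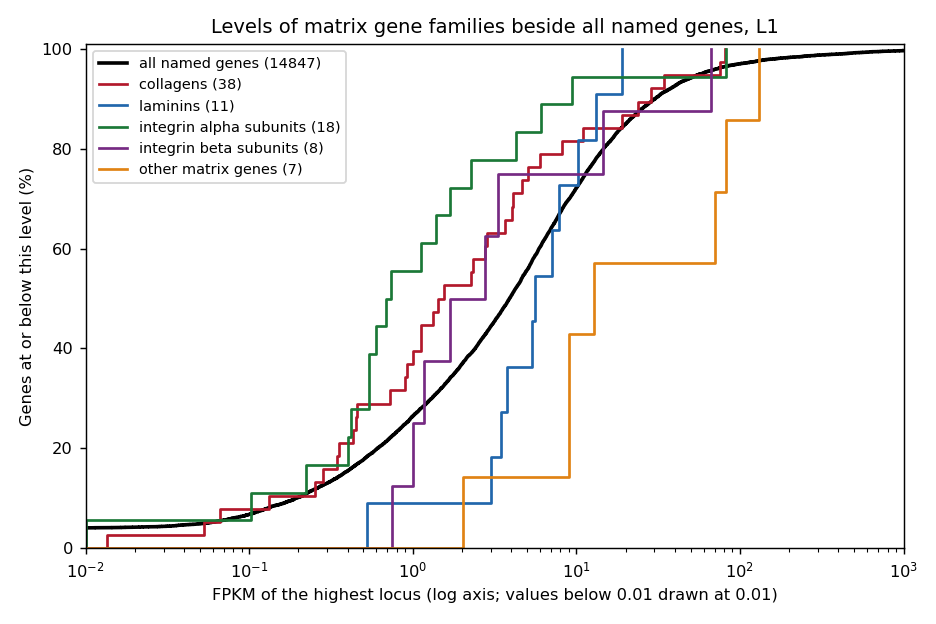
Cumulative share of genes (y axis, percent) at or below each FPKM level (x axis, log scale) in the L1 library, for all 14847 named genes and for the families described here; values below 0.01 are drawn at 0.01. The curve of the integrin alpha subunits lies to the left of that of all named genes over most of the range, with a median of 0.71 FPKM, and that of the 7 other matrix genes lies to the right, with a median of 12.8.

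A few genes held most of the signal of the set. The 6 highest, Sparc, Dcn, Itga6, Col9a1, Col3a1 and Postn, made up 56.0% of the summed FPKM of all 83. Itgb1, at 66.4 FPKM, came next. These 7 of the 83 were the genes above 50 FPKM, a level that a smaller share of named genes reached, 862 of the 14847. Below them Col1a2 at 34.4 and Col4a1 at 28.8 FPKM led a group of moderate levels. All 83 genes together amounted to 0.0863% of the summed FPKM of named genes. FPKM values are shares of one library, so a gene's level here also depends on how much of the library other transcripts take up.

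**Figure D2:**
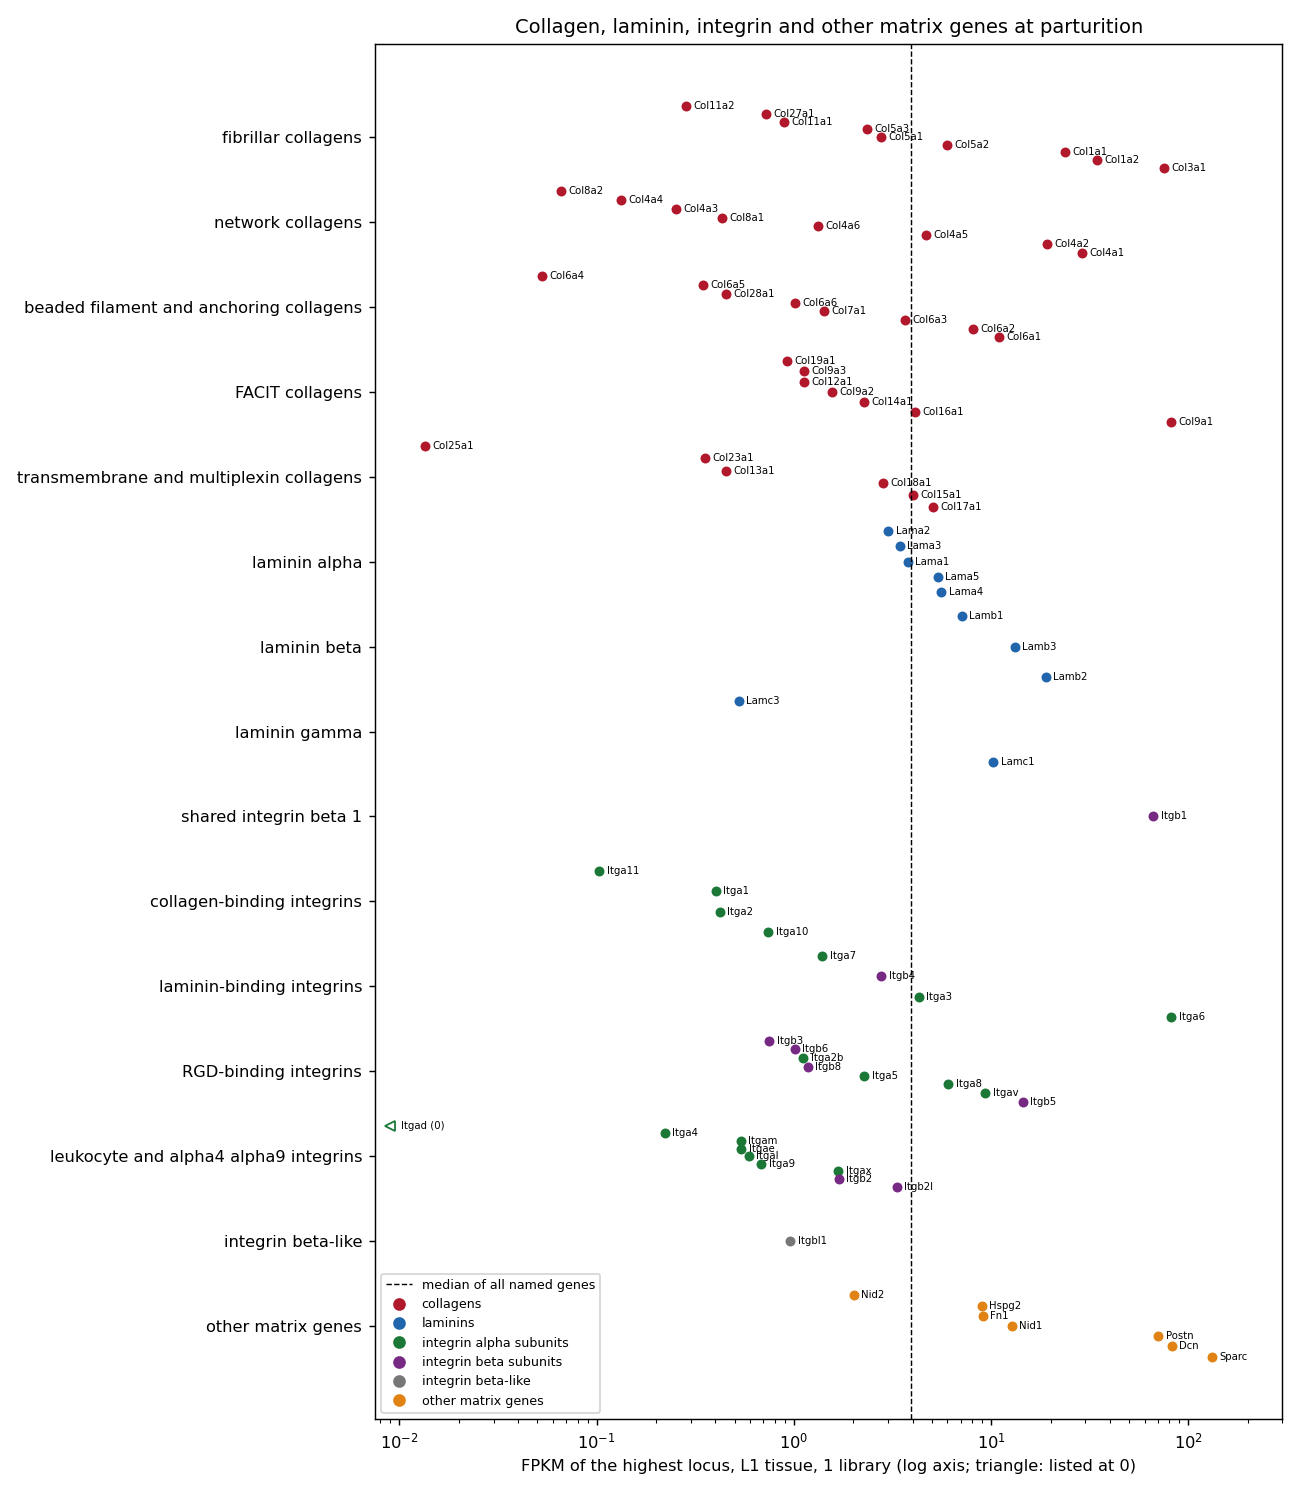
FPKM of the highest locus (x axis, log scale) of the genes reported singly in the L1 library, in rows by role; the dashed line is the median of all named genes, 3.90 FPKM, and the open triangle is Itgad, listed at 0. Sparc, Dcn, Itga6, Col9a1, Col3a1, Postn and Itgb1 lie farthest to the right, above 50 FPKM, and most rows also hold genes below 1 FPKM.

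Among the fibrillar collagens, which form the fibres of connective tissue, chains of collagens III and I stood far above the rest. Col3a1, the only chain of collagen III, was at 75.03 FPKM, Col1a2 at 34.4 and Col1a1 at 23.8. Col3a1 was 3.15 times Col1a1 and 2.18 times Col1a2. The collagen I molecule holds more alpha 1 than alpha 2 chains, whereas the transcript of Col1a1 was at 0.69 times that of Col1a2. Chains of collagen V, which nucleates collagen I fibres, were lower, with Col5a2 at 5.98 FPKM, Col5a1 at 2.77 and Col5a3 at 2.34. The cartilage collagen XI chains Col11a1 and Col11a2 were at 0.89 and 0.28 FPKM and Col27a1 at 0.72. At or above 1 FPKM stood 6 of the 9 fibrillar chains (66.7%), a share near the 73.6% of all named genes.

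Whole tissue holds fat, vessel, nerve and muscle as well as epithelium and fibroblasts, and in such a sample fewer cells of a type and less RNA per cell cannot be told apart. Fibroblast markers were all measured, 8 of 8, between 2.34 (Pdgfrb) and 22.4 FPKM (Lum), with none at 0 and a summed level of 69.03. Adipocyte markers, 6 of 6, ran from 5.51 (Lep) to 723 FPKM (Fabp4) and summed to 920.0. Luminal epithelial markers, 6 of 6, ran from 21.4 (Cdh1) to 577 FPKM (Elf5), so the epithelium of the labelled gland was represented. Their part in the collagen levels was not tested.

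Basement membrane collagen IV was carried by its common chains. Col4a1 was at 28.8 FPKM and Col4a2 at 19.1, a ratio of 1.51, and the usual collagen IV molecule likewise holds more alpha 1 than alpha 2 chains. The X-linked chains were lower, with Col4a5 at 4.69 and Col4a6 at 1.33 FPKM, and the chains best known from kidney glomerulus, Col4a3 and Col4a4, were near the bottom at 0.25 and 0.13. Of the network collagens of type VIII, found beneath endothelium, Col8a1 was at 0.43 and Col8a2 at 0.066 FPKM. At or above 1 FPKM stood 4 of these 8 chains, against 73.6% of all named genes, and all 4 were collagen IV chains.

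Collagen VI, a beaded filament between fibres and basement membranes, showed its classical chains in the order Col6a1 at 10.97, Col6a2 at 8.12 and Col6a3 at 3.65 FPKM. Col6a1 was 1.35 times Col6a2 and 3.01 times Col6a3, although the molecule takes up these chains in equal number. The later-described chains, which can stand in for Col6a3, were lower, with Col6a6 at 1.01, Col6a5 at 0.35 and Col6a4 at 0.053 FPKM. Col7a1, which forms the anchoring fibrils beneath stratified epithelium, was at 1.42 FPKM and Col28a1 at 0.45.

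The FACIT collagens sit on the surface of fibres, and 6 of their 7 measured chains lay between 0.92 and 4.11 FPKM. Col16a1 was at 4.11, Col14a1 at 2.27, Col12a1 at 1.13 and Col19a1 at 0.92. Col9a1 was the exception at 81.3 FPKM, the highest value of any collagen. Collagen IX, known from cartilage and the eye, is built from Col9a1, Col9a2 and Col9a3 chains, and the latter were at 1.56 and 1.12 FPKM, which put Col9a1 52.2 and 72.5 times above them. Its value came from 1 locus. How much of the gene that locus covers was not analysed here, and the RefSeq table gives Col9a1 the separate starts shown above, of a longer and a shorter transcript. Without Col9a1 the median of the whole set was 2.27 FPKM, as with it, but leaving out 1 gene can hardly move such a median. Sums depend on it more, as Col9a1 made up 8.71% of the summed FPKM of the set.

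Of the remaining collagens, those of the basement membrane zone were the higher ones. Col17a1, a transmembrane collagen of hemidesmosomes, was at 5.09 FPKM, Col15a1 at 4.02 and Col18a1, the source of endostatin, at 2.83. Col13a1 was at 0.45, Col23a1 at 0.35 and Col25a1 at 0.014 FPKM. Over all 38 collagens, Col1a1, Col1a2, Col3a1, Col4a1 and Col4a2 held 54.5% of the summed FPKM, and of the other chains only Col9a1 and Col6a1 were at or above 10 FPKM.

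**Figure D3:**
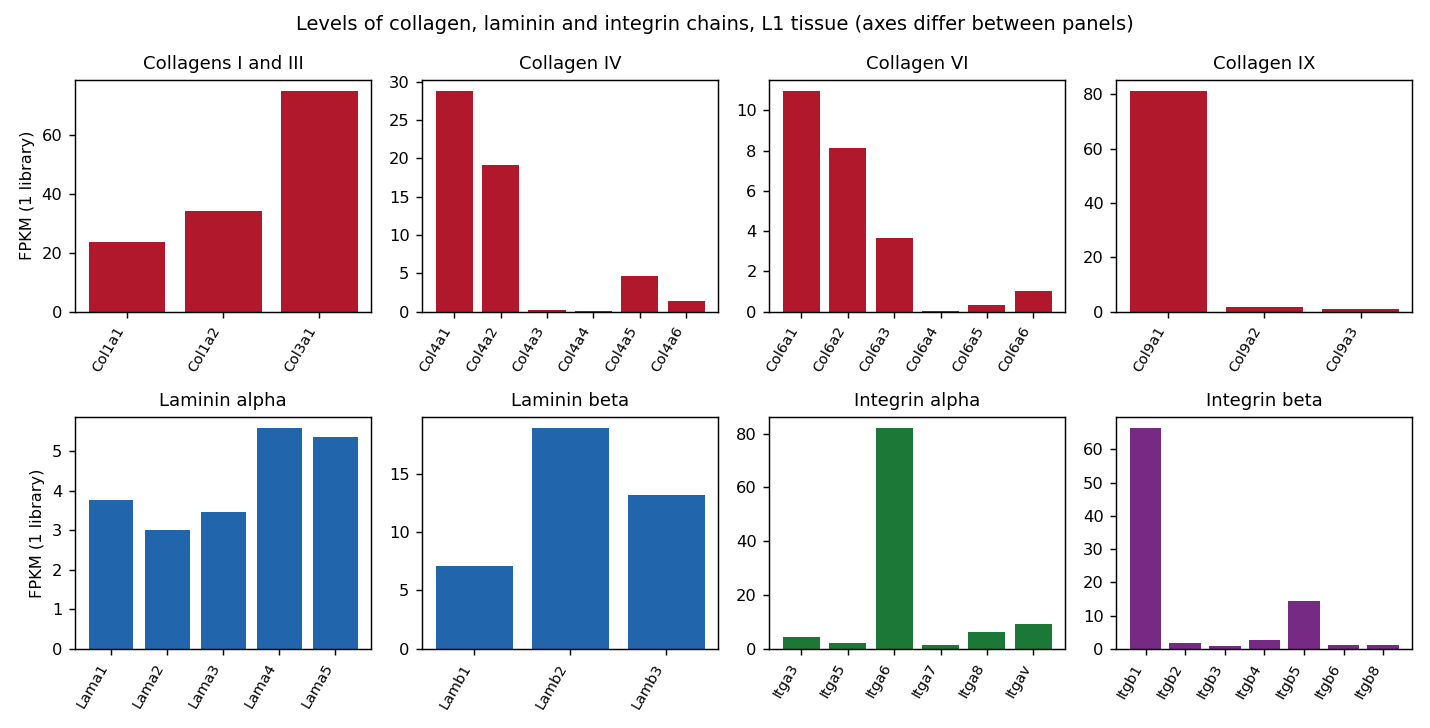
FPKM (y axes, starting at 0, with different scales) of the chains of collagens I and III, IV, VI and IX, of the laminin alpha and beta chains, of 6 integrin alpha subunits and of the integrin beta subunits except Itgb2l, in the single L1 library; each bar is the highest locus of 1 gene, with no error bars as there is no replicate. Col4a1 and Col4a2 stand above the other collagen IV chains, Col9a1 stands at 81.3 beside partners at 1.56 and 1.12, and Itga6 at 82.1 and Itgb1 at 66.4 are the highest integrin subunits.

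Laminins are trimers of an alpha, a beta and a gamma chain, and nearly all chains were measured at moderate levels. The alpha chains, which bind the cell receptors, lay close together at their highest loci. Lama4 was at 5.58 FPKM, Lama5 at 5.35, Lama1 at 3.77, Lama3 at 3.45 and Lama2 at 3.01. With loci summed they ran from 3.77 (Lama1) to 10.04 FPKM (Lama4). The beta chains were higher, with Lamb2 at 18.9, Lamb3 at 13.2 and Lamb1 at 7.10 FPKM. Lamb1 was thus at 0.38 times Lamb2, the beta chain that replaces it in some mature basement membranes. Of the gamma chains, Lamc1 was at 10.3 and Lamc3 at 0.52 FPKM. Summed over chains, the alpha chains came to 21.2 FPKM and the beta chains to 39.2, although each trimer holds equal numbers. With all loci counted these sums were 27.5 and 40.2 FPKM, so the beta chains stood above the alpha chains by less.

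Lama3 and Lamb3 are chains that assemble together under basal epithelial cells, and they were unequal here, with Lamb3 3.82 times Lama3. Myoepithelial cells are a source of both. Of the 8 markers of these cells 7 were measured, from 3.37 (Trp63) to 59.0 FPKM (Cnn1), summing to 253, with none at 0. Lama4 is known from vessels and Lama2 from muscle and nerve. Endothelial markers, 6 of 6, lay between 0.77 (Vwf) and 15.1 FPKM (Pecam1) and summed to 45.6. Skeletal muscle markers, 6 of 6, lay between 8.37 (Myh4) and 37.2 FPKM (Tnnt3) and summed to 153. Schwann cell markers, 4 of 4, reached up to 70.5 FPKM (Sox10, which mammary epithelium also expresses) and summed to 84.6. None of these lists held a gene at 0, and their part in the laminin levels was not tested.

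The proteins that link the laminin and collagen IV networks followed. Nid1 (nidogen 1) was at 12.8 FPKM, which was 6.33 times its relative Nid2 at 2.02. Hspg2, which encodes perlecan, was at 9.0 FPKM. Nid1 and Hspg2 lay near Lamc1, the chain that nidogen binds, at 10.3 FPKM.

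Among the proteins of the interstitial matrix, Sparc, a collagen-binding matricellular glycoprotein also needed for basement membranes, led the whole set at 132 FPKM. Dcn (decorin), a small proteoglycan on collagen fibres, was at 82.6 and Postn (periostin) at 70.3 FPKM. Fn1 was far lower at 9.05 FPKM. All 7 other matrix genes, Nid1, Nid2 and Hspg2 included, reached 1 FPKM, as did 73.6% of all named genes. Itgbl1, the integrin beta-like protein, was at 0.96 FPKM.

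Integrin beta 1, which pairs with more alpha subunits than any other beta chain, was the highest beta subunit at 66.4 FPKM. Itgb5 followed at 14.5 FPKM. Itgb2l was at 3.33, Itgb4 at 2.77 and Itgb2 at 1.69, and Itgb8, Itgb6 and Itgb3 were at 1.18, 1.01 and 0.75 FPKM. The 12 alpha subunits that can pair with beta 1 summed to 108 FPKM, above Itgb1 itself, but without Itga6 they came to 26.0. A locus shared by Itga1 and Pelo, at 10.3 FPKM, is in neither sum.

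The laminin receptors were dominated by Itga6 at 82.1 FPKM, the highest integrin of all. It was 19.1 times Itga3, at 4.30 FPKM, the other epithelial laminin receptor subunit, while Itga7, known from muscle, was at 1.39. Alpha 6 pairs either with beta 1 or with beta 4, the hemidesmosome subunit. Itga6 was 1.24 times Itgb1 and 29.6 times Itgb4, which stood at 2.77 FPKM. Itga6 had 3 loci, at 82.1, 13.7 and 10.8 FPKM, so its level depends on which locus stands for the gene. The ratio to Itgb4 was 28.7 with the loci summed and 25.8 with the median locus of each gene, but the median locus of Itga6, at 13.7 FPKM, lay below Itgb1, at a ratio of 0.21.

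Integrins that recognise the RGD sequence of fibronectin and related ligands were of mixed level. Itgav was at 9.36 FPKM and its partner Itgb5 at 14.5, and its other partners Itgb8, Itgb6 and Itgb3 lay between 0.75 and 1.18, so Itgb5 was 14.3 times Itgb6. Itga8 was at 6.07 FPKM and Itga5, the fibronectin receptor subunit, at 2.27, which put Itgav 4.12 times above Itga5. Itga2b, the platelet subunit, was at 1.12 FPKM. Of the 4 platelet markers 3 were measured, Pf4 at 3.39, Ppbp at 0.38 and Gp1ba at 0.30 FPKM, with a summed level of 4.07. Whether platelets supplied Itga2b and Itgb3 was not tested.

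Alpha subunits of the collagen-binding integrins had low values at their highest loci. Itga10 was at 0.74 FPKM, Itga2 at 0.42, Itga1 at 0.40 and Itga11 at 0.10, so none of the 4 reached 1 FPKM, which 73.6% of all named genes did. With loci summed, Itga10 came to 1.59 FPKM and passed that level, while Itga1 came to 0.71. For Itga1 the value is uncertain, because a further locus carrying both Itga1 and its neighbour Pelo stood at 10.3 FPKM and was left out, as it cannot be split between them. Another class of collagen receptor, the discoidin domain kinases, showed Ddr1 at 14.5 FPKM and Ddr2 at 0.67.

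Leukocyte integrins, grouped with the alpha 4 and alpha 9 subunits, were also mostly low in this tissue. At or above 1 FPKM stood 3 of these 9 genes (33.3%), against 73.6% of all named genes. The highest of the group was Itgb2l, at 3.33 FPKM, or 6.84 with its 5 loci summed. The beta 2 subunit Itgb2 was at 1.69 FPKM, with its alpha partners Itgax at 1.68, Itgal at 0.59, Itgam at 0.54 and Itgad listed at 0. Itgae, an alpha subunit of intraepithelial T cells, was at 0.54, Itga9 at 0.68 and Itga4 at 0.22 FPKM. Leukocyte markers, 7 of 7 measured, reached up to 62.0 FPKM (Lyz2) with a summed level of 70.8, while the common leukocyte antigen Ptprc was at 2.47 and Cd3e at 0.55. Lymph nodes had been taken out of the tissue, per the labels. The part of leukocytes in these values was not tested.

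Of the 83 genes, 25 had more than 1 locus in the transcript assembly (30.1%, against 25.8% of all named genes). In 10 of the 25 the sum over loci was within 1.1 times the highest locus, and in 11 it was at least 1.3 times. In Dcn the other loci reached at most 0.27 FPKM beside 82.6, in Col4a1 0.64 beside 28.8, and in Col4a2 0.38 beside 19.1. For 7 genes the sum over loci was over 1.5 times the highest locus. Relative to the highest locus the sum was largest in Itga10, at 2.14 times over 3 loci, and in Itgb2l, at 2.05 times, which came to 6.84 FPKM over 5 loci. Sparc had the highest sum in FPKM, with loci at 132 and 98.6 that add up to 230.2. Lama4 came to 10.04 FPKM over 5 loci, and the others were Col4a6, Col19a1 and Itga1. Summing made Lama4 the highest alpha laminin by a wider margin over Lama5, which had 1 locus at 5.35 FPKM.

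**Figure D4:**
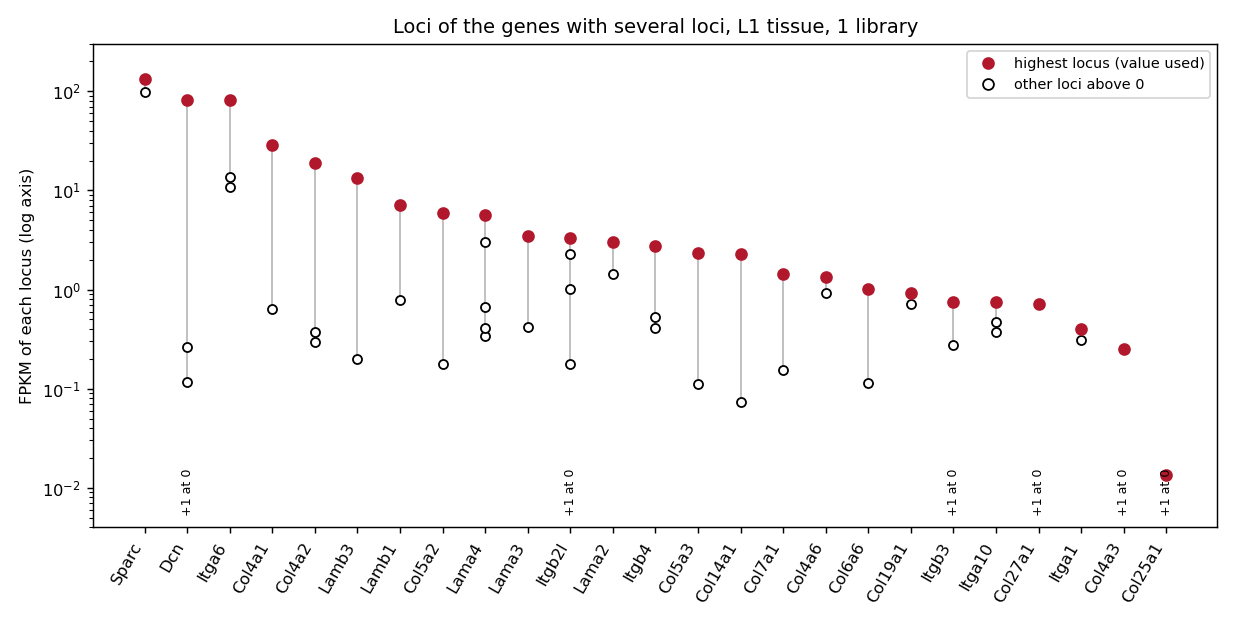
FPKM (y axis, log scale) of every locus of the 25 genes with several loci, in the single L1 library; filled points are the highest locus, which is the value used, open points are the other loci above 0, and loci at 0 are noted at the bottom. In Dcn, Col4a1 and Col4a2 the other loci lie far below the highest, while in Sparc the loci stand at 132 and 98.6.

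Several genes of the set lie next to each other in the genome, and neighbours were alike in some pairs and far apart in others. In the gene order of GRCm38.p6, 12 pairs of adjacent protein-coding genes were both in the set. Itga2 and Itga1 were at 0.42 and 0.40 FPKM, without the locus shared by Itga1 and Pelo at 10.3 FPKM, so this likeness is uncertain. Col6a1 and Col6a2 differed 1.35 times, and Col4a1 and Col4a2, which overlap at starts 21 bases apart, 1.51 times. Col4a5 and Col4a6 also start on opposite strands, but 1343 bases apart and reading away from each other. They differed 3.53 times, or 2.08 times with their loci summed. At the other end, Col3a1 was 12.6 times its neighbour Col5a2, and Col9a1 was 88.3 times its neighbour Col19a1. Further pairs were Col4a4 and Col4a3 (1.91 times), Itgam and Itgax (3.12 times), Itgax and Itgad, Col6a6 and Col6a5 (2.92 times), and Col6a5 and Col6a4 (6.52 times).

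Promoter windows were found for 60 of the 83 genes, 67 windows in all. GGGCGG was in 34 of them (50.7%), against 32.7% of all 32851 windows of the table, and the median number of CG pairs was 10 against 6. CCAAT was in 19 (28.4%, against 33.8%) and TATAAA in 5 (7.46%, against 12.4%). TTCNNNGAA was in 4 windows (5.97%, against 7.02%), those of Lamb2, Col28a1, Col6a5 and Itga10. Lamb2, whose match TTCCTCGAA began 208 bases before the start, was the only one of these at or above 5 FPKM. In windows of genes at or above 5 FPKM GGGCGG was in 10 of 24 (41.7%), and in those of genes below 5 FPKM in 24 of 43 (55.8%). These are matches of letters, and no binding data were placed on them.

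Other genes of matrix production and adhesion, from fixed lists, gave the surroundings of these levels. Of 28 genes for collagen synthesis and crosslinking 27 were measured, with a median of 2.86 FPKM and 21 at or above 1 (77.8%, against 73.6% of all named genes). The highest were P4hb, a subunit of prolyl hydroxylase that also folds other secreted proteins, at 264 FPKM, the cyclophilin Ppib at 196 and the collagen chaperone Serpinh1 at 48.0. The catalytic prolyl hydroxylase subunits P4ha2, P4ha1 and P4ha3 were at 6.29, 3.23 and 0.064 FPKM, and the crosslinking enzyme Lox was at 3.51.

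Basement membrane partners and matrix receptors, 22 of 22 measured, had a median of 4.97 FPKM. Of these, 21 were at or above 1 (95.5%, against 73.6% of all named genes). They were led by the syndecan Sdc4 at 87.4, Tinagl1 at 61.6 and the tetraspanin Cd151, a partner of laminin-binding integrins, at 24.4. Small leucine-rich proteoglycans, elastic fibre and matricellular genes had a median of 3.20 FPKM over 23 of 25, 19 of them at or above 1 (82.6%). Tnc was at 24.1, Lum at 22.4 and Bgn at 21.8, whereas Fbln5 was listed at 0. The intracellular adhesion complex that couples integrins to actin was measured in 23 of 24 genes, with a median of 12.9 FPKM. Here too 19 were at or above 1 (82.6%), a share not far above that of all named genes. Its highest were Actn4 at 70.1, the kindlin Fermt2 at 26.7 and Flna at 23.5 FPKM. The haematopoietic forms Fermt3 and Parvg were at 0.87 and 0.52. Above 3.90 FPKM, the median of all named genes, lay 18 of the 23 adhesion complex genes and 10 of the 27 synthesis genes. So did 12 of the 22 basement membrane partners and receptors, and 10 of the 23 proteoglycan, elastic fibre and matricellular genes.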

How the data were processed

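RNA-seq of mammary tissue at parturition was analysed, 1 library. Per the labels' protocols, poly(A) RNA was made into a TruSeq library and sequenced on an Illumina HiSeq. The submitters' processing notes name CASAVA, TopHat and the build mm9. The authors deposited FPKM per locus of a transcript assembly. Which tool computed them, and every version, is not stated in those sources. The table has no counts, so depth is unknown and no interval or limit of detection can be given.

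Of 30305 loci, 8230 without a symbol and 117 with several symbols were left out. Where a gene had several loci the highest FPKM was used, and low values were not filtered. Counts at 1 and 10 FPKM and medians were computed with Python 3.11.15 and pandas 2.3.3. Only the step that gives each gene its highest value, its sum and its number of loci was tested on simulated data. Promoter windows came from RefSeq (GRCm38.p6), and all 83 symbols matched its gene table. Only the upstream 250 bases were searched. Coordinates count from 1. The peak lists of day 6 of pregnancy were not used, since no annotation of mm9 was at hand.

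The genes and lists were chosen with earlier results of these data known. Named are the highest 6 of each role group, all chains of the main collagens, the laminins and the main integrin dimers, the 7 other matrix genes, members at 0, and the highest 3 of each pathway list. A few genes covered by the rule are not reported here singly. Other genes named were chosen after their values were seen. Alternatives tried were summing loci, the median locus, genes with a single locus, an FPKM minimum and a pseudocount.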

Additional observations from a re-analysis of the deposited data

How the results depend on the processing

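No paired analysis was possible because all values come from 1 library. Any change of the third digit is given here as a move, since there is no replicate spread to hold it against. With loci summed, the medians were 2.34 FPKM for all 83 genes, 1.94 for collagens, 7.80 for laminins, 0.91 for integrin alpha and 2.70 for integrin beta subunits, and 4.32 for all named genes. With single-locus genes they were 1.85, 2.17, 6.57, 0.68 and 1.69 FPKM in the same order, and 3.79 for all named genes. With genes at or above 1 FPKM they were 4.89, 4.06, 6.34, 3.29 and 2.77, and 6.76 for all named genes. Under each of these settings laminins had the highest median of the 4 families, above that of all named genes except with genes at or above 1 FPKM. The number of genes at or above 1 FPKM was 56, or 59 with loci summed and 38 among the 58 single-locus genes. At other levels, 28 reached 5 FPKM and 79 reached 0.1. Of all 14847 named genes, 10926 reached 1 FPKM, 6574 reached 5 and 13845 reached 0.1. The share of the 83 genes was thus below that of named genes at 1 and 5 FPKM and slightly above it at 0.1. Named genes at large were not counted with loci summed or among single-locus genes. The ratio of Col1a1 to Col1a2 was 0.70 and that of Col6a1 to Col6a2 1.31 with a pseudocount of 1. Col4a1 to Col4a2 stood at 1.49 with loci summed, at 1.48 with the pseudocount and at 39.1 with the median locus, because Col4a2 has 2 minor loci beside its main one and Col4a1 has 1. Lamb1 to Lamb2 stood at 0.42, 0.41 and 0.21 in these settings, and Itga6 to Itgb4 at 28.7, 22.04 and 25.8. None of these 5 ratios crossed 1, but a pseudocount added to both genes cannot carry a ratio across 1. Col1a1, Col1a2, Col6a1 and Col6a2 have 1 locus each, so the locus settings could not change their ratios. The ratio of Itga6 to Itgb1, not among these 5, went from 1.24 to 0.21 with the median locus. Leaving out Col9a1, a setting chosen after seeing the data, left the median of all 83 genes at 2.27 FPKM, which 1 gene can hardly move. The unknown depth limits all values below about 1 FPKM, where few fragments may stand behind a level.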
